A study of Rattus norvegicus with 8 samples.

Results

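The growth hormone receptor and the insulin-like growth factor (IGF) axis were examined through 9 genes, listed by their symbols. These were the receptor genes Ghr, Igf1r and Igf2r, the growth factor genes Igf1 and Igf2, and the IGF binding protein genes Igfbp2, Igfbp3, Igfbp5 and Igfbp6. The list was made with earlier results of these data known, so its counts beside those of all genes are descriptive only. All 9 were among the 14506 genes measured, each by 1 probe set. The tissues were the ductus arteriosus (DA), the shunt between pulmonary artery and aorta that is open in the fetus and shuts in the newborn, and the aorta itself. They came from full-term neonates of 2 inbred rat strains, Fischer344 (F344) and Brown-Norway (BN), on day 0 and 1 h after birth, and no agent or engineered allele is given for any group. BN rats are known for a ductus that closes late or incompletely. Each of the 4 combinations of strain and vessel had 2 Affymetrix Rat Gene 1.0 ST arrays, made from RNA of pooled tissues. The labels do not say that the 2 pools of a group came from separate litters, so each p-value rests on the spread between these samples alone, which may be technical.

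Growth hormone acts through its receptor, which signals through the kinase JAK2 and the transcription factor STAT5, and one of its best known targets is Igf1. IGF1 and IGF2 drive growth and survival of many cells, smooth muscle included, through the tyrosine kinase receptor encoded by Igf1r. The receptor encoded by Igf2r has no kinase: it takes up IGF2 for breakdown and also sorts lysosomal enzymes. Binding proteins hold IGFs in the extracellular space and can withhold them from the receptor or deliver them, and proteases such as PAPP-A release IGFs from them.

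The dissected tissue carried the markers its labels call for. The mean log2 value of 8 smooth muscle markers lay between 11.41 and 12.02 on all 8 arrays, and the ductus transcription factor gene Tfap2b lay between 9.25 and 9.92 on the DA arrays and between 5.51 and 6.75 on the aorta arrays. BN DA replicate 1 stood apart in its lymphocyte and thymocyte markers, whose mean over 10 genes was 7.07, against 5.91 to 6.03 on the other 7 arrays. Replicates of BN DA also differed more than those of other groups, with an SD of the replicate difference over genes of 0.349, against 0.196 to 0.258.

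Of the 9 genes, 4 passed the test in at least 1 comparison: Ghr, Igf2r, Igfbp2 and Igfbp6. The share of all genes called in at least 1 comparison was not computed. Between the vessels alone, 14% of all genes were called in F344 and 16.6% on average over the strains. The promoters of these 4 genes are shown because Ghr was the gene of this set that was higher in DA, while the other 3 were lower there in F344. The 250 bases before the RefSeq transcription start are given for each, in build GRCr8, read 5′ to 3′ in the direction of the gene. The window of Ghr is chr2:54432076-54432325 on the minus strand, that of Igf2r chr1:50526628-50526877 on the plus strand, that of Igfbp2 chr9:81864561-81864810 on the plus strand and that of Igfbp6 chr7:135154669-135154918 on the plus strand. Capitals mark GC boxes (GGGCGG) and the CACGTG form of the E-box, searched on both strands.
Ghr: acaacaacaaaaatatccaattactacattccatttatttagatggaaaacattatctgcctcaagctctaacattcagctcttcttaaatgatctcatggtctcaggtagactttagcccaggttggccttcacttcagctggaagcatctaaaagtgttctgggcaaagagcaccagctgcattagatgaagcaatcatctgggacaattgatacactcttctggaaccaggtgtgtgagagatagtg
Igf2r: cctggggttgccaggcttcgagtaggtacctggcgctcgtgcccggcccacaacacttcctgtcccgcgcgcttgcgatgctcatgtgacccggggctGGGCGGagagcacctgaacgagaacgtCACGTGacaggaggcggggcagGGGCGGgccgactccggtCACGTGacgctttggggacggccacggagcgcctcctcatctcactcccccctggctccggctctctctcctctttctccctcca
Igfbp2: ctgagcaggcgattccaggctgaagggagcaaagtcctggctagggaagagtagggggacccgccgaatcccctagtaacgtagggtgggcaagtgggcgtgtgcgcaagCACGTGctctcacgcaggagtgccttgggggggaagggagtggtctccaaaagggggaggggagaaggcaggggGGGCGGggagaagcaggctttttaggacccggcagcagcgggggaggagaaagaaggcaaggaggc
Igfbp6: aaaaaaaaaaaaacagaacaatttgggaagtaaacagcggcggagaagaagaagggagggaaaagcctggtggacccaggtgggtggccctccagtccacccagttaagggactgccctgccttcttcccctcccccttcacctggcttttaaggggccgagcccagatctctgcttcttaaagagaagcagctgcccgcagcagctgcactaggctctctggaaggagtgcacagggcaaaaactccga

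The Ghr window held 40.8% G and C, the lowest share among the 9 genes, whose other windows held between 46.8% (Igf1) and 79.6% (Igf1r), and the median of 33469 rat promoter windows was 51.2%. GC boxes stood 152 and 103 bases before the start in Igf2r and 66 bases before it in Igfbp2. None lay in the windows of Ghr and Igfbp6. In all, 4 of the 9 genes had a GC box, and 30.5% of all windows did. The CACGTG form of the E-box, a motif picked after the sequences were seen, was in 3 of the 9 (Igf1r, Igf2r and Igfbp2) and in 5.59% of all windows. Other forms of the E-box, such as CAGCTG, were not searched, and CAGCTG stands unmarked in the windows of Ghr and Igfbp6. The AP-2 motif GCCNNNGGC, that of the family of Tfap2b, was in 1 of the 9 genes, Igf1r, and in 12.6% of all windows. Igf2 had 2 windows, so these counts are of genes with a match in any window, while the shares are of single windows. The STAT5 motif TTCNNNGAA was in 0 of the 9 and in 7.67% of all, and the TATA box TATAAA was in 0 and in 12.9%. The motifs do not overlap one another in the windows shown. A match or its absence describes these letters and no binding.

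**Figure D1:**
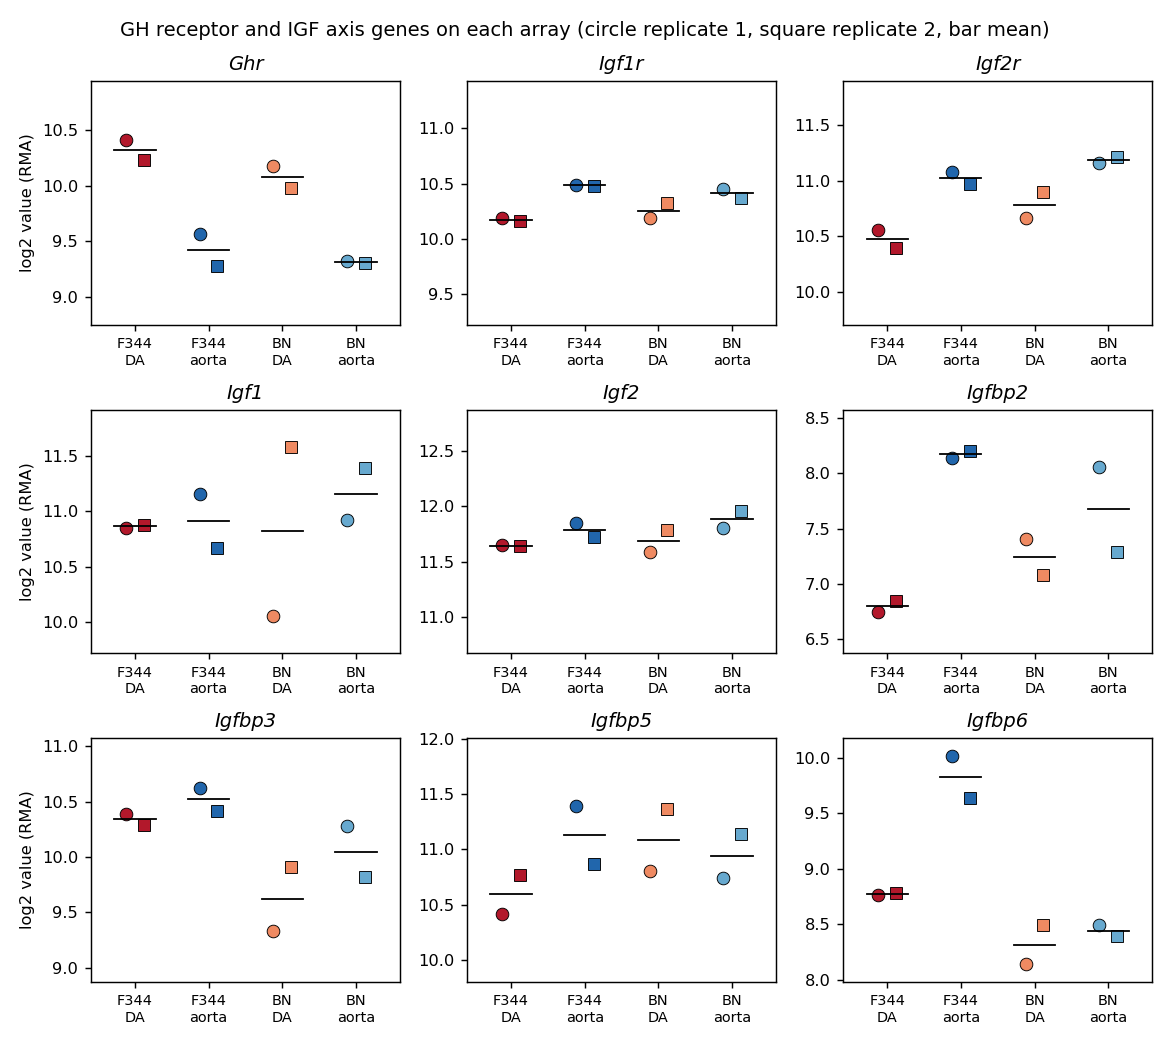
Log2 RMA values (vertical axes, each spanning the same width of the log2 scale) of the 9 genes on each of the 8 arrays, by strain and vessel; circles are replicate 1, squares replicate 2 and bars the mean of 2 arrays. Ghr lay above 9.9 on all DA arrays and below 9.6 on all aorta arrays, and Igfbp6 lay above 9.6 only on the F344 aorta arrays.

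Within F344, Ghr was 1.87-fold higher in DA, while the binding protein genes Igfbp2 and Igfbp6 were 2.58-fold and 2.08-fold lower and the IGF2 clearance receptor gene Igf2r was 1.47-fold lower. The growth factor genes themselves did not pass the test. So 1 of the 9 genes rose and 3 fell, in a comparison where 8.87% of all genes were called higher and 5.12% lower (14% together). The median difference of the 9 was -0.31 on the log2 scale, against -0.04 over all genes. A gene was called where its p from limma, adjusted by Benjamini and Hochberg, was under 0.05; limma is a linear model with moderated variances, fitted here to all 14506 genes, and 1 on the log2 scale is a 2-fold difference.

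Ghr, the receptor that mediates the action of growth hormone, was at 10.41 and 10.23 on the F344 DA arrays and at 9.56 and 9.28 on the aorta arrays (log2). Both DA values were above both aorta values, with a gap of 0.68 between the nearest arrays. The log2 difference was 0.91 ± 0.14 (SE, limma adjusted p = 0.00409; Entrez 25235).

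Igfbp2, whose product binds IGF2 with preference over IGF1, was at 6.75 and 6.85 in DA and at 8.14 and 8.20 in aorta. The DA values lay below the lowest array median (6.96), so the fold is less certain as a ratio of expression. The groups were 1.29 apart at their nearest arrays, the widest such gap among the 9 genes in this comparison. The log2 difference was -1.37 ± 0.23 (SE, limma adjusted p = 0.00483; Entrez 25662), and 1.7% of all genes had a larger difference in either direction. Igfbp6, which encodes another binding protein with a strong preference for IGF2, was at 8.76 and 8.78 in DA and at 10.02 and 9.64 in aorta. Again no DA value reached an aorta value. The difference was -1.06 ± 0.17 (SE, limma adjusted p = 0.00392; Entrez 25641).

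Igf2r was at 10.56 and 10.39 in DA and at 11.08 and 10.97 in aorta. The difference was smaller than for the binding proteins, at -0.55 ± 0.13 (SE, limma adjusted p = 0.0247; Entrez 25151). This call depended on how arrays were scaled: the difference kept its sign but the adjusted p was 0.0562 after repeated quantile normalization, 0.0534 after cyclic loess and 0.151 after centring each array on its brighter genes. It was also lost when any of the 4 F344 arrays was left out (adjusted p between 0.0644 and 0.182).

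The remaining 5 genes did not pass. Igf1r, the signalling receptor gene, had a difference of -0.31 ± 0.12 (limma adjusted p = 0.118), with 10.19 and 10.16 in DA and 10.49 and 10.48 in aorta, and was called with array weights only (adjusted p = 0.0437). These groups did not overlap, as was so for 8 of the 9 genes (all but Igf1) and for 67.4% of all genes in this comparison. Igfbp5, which encodes a binding protein that also attaches to extracellular matrix, had a difference of -0.54 ± 0.24 (adjusted p = 0.174). Igfbp3, the gene of the main IGF carrier in serum, had -0.18 ± 0.21 and Igf2 had -0.14 ± 0.13. For Igf1 the difference was -0.05 ± 0.40, with a 95% confidence interval from -0.95 to 0.86, so a difference of nearly 2-fold either way was within the error. As deposited 8 of the 9 differences were below 0, and 5 were after centring on brighter genes, which raised the median of all genes with them: the median of the 9 was -0.31 against -0.04 over all genes as deposited, and -0.10 against 0.16 after centring. After repeated quantile normalization it was -0.17 against -0.02, and after cyclic loess -0.17 against 0, with 7 of the 9 below 0 in each. Centring moved the share of all calls that were higher in DA from 63.4% to 87.6%.

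Markers of other cells also differed between the vessels in F344, where 8.87% of all genes were called higher in DA and 5.12% lower. The marker counts are of the values as deposited and were not repeated under other scalings. Of 10 endothelial markers 0 were called higher in DA and 5 lower (Sox17, Cldn5, Sox18, Tie1 and Tek), and their mean lay between 8.38 and 8.42 on DA arrays and between 8.87 and 9 on aorta arrays. Of 7 fibroblast markers 0 were higher and 4 lower, with means of 10.13 to 10.28 in DA and 10.76 to 10.86 in aorta. Of 9 macrophage markers 0 were higher and 3 lower, with means of 7.15 to 7.32 in DA and 7.63 to 7.9 in aorta. Of 8 smooth muscle markers 2 were higher and 0 lower, with means of 11.88 to 12.02 and 11.55 to 11.61. Of 6 markers of epithelium and mesothelium 1 was higher (Epcam) and 2 lower, with means of 6.48 to 6.49 and 6.76 to 7.05. The 2 were the keratin genes Krt8, with a mean of 6.42 in DA and 8.22 in aorta, and Krt18, with 8.33 and 9.69. Of 10 lymphocyte and thymocyte markers 0 were higher and 1 lower. In tissue RNA, fewer cells of a type and less RNA per cell cannot be told apart, and the part of these cells in the differences of Ghr, Igf2r, Igfbp2 and Igfbp6 was not tested.

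**Figure D2:**
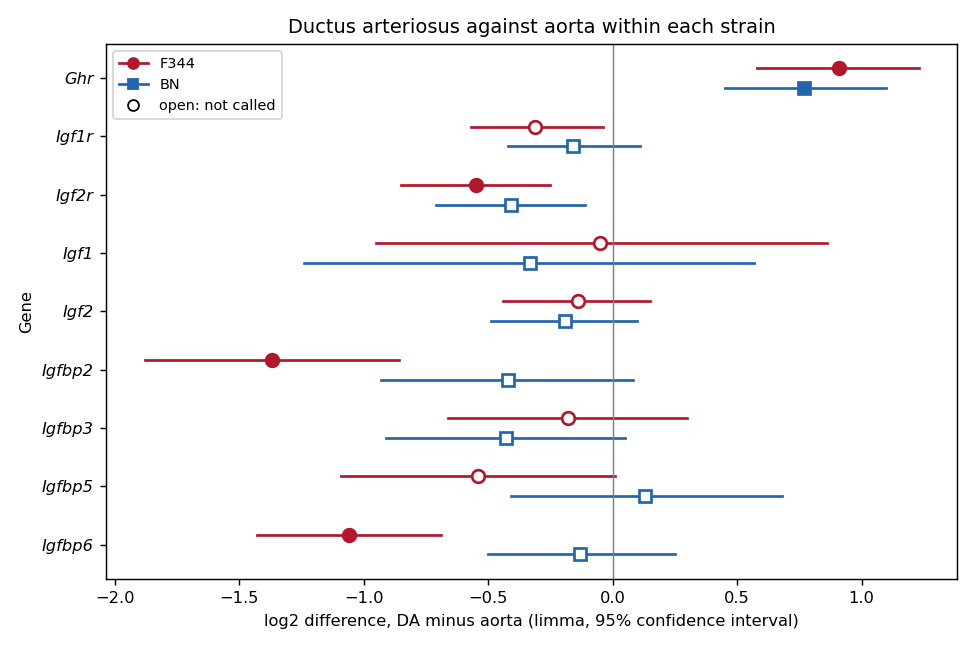
Log2 difference of DA minus aorta (horizontal axis) for each of the 9 genes within F344 (red circles) and BN (blue squares), with 95% confidence intervals from limma; filled symbols passed the test. Ghr lay to the right of 0 in both strains, at 0.91 and 0.77, while Igfbp2 and Igfbp6 were filled only for F344.

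The same comparison in BN showed Ghr alone among the 9 genes as called. It was 1.71-fold higher in DA, so 1 of 9 rose and 0 fell, in a comparison where 0.986% of all genes were called higher and 0.82% lower (1.81% together). Ghr was at 10.18 and 9.98 on the BN DA arrays and at 9.32 and 9.30 on the BN aorta arrays. The gap between the nearest arrays, 0.66, was close to that in F344. The log2 difference was 0.77 ± 0.14 (SE, limma adjusted p = 0.0338). It did not pass when array weights were used (0.106) or when only the 4 BN arrays were fitted (0.146), and it passed in 1 of the 8 fits with an array left out, that without BN DA replicate 2, although the difference stayed between 0.67 and 0.87. The arrays left out include the F344 ones, which enter through the shared estimate of the spread.

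The 3 genes that fell in F344 DA were not called in BN. Igf2r was at 10.66 and 10.90 in DA and at 11.16 and 11.21 in aorta, a difference of -0.41 ± 0.13 (limma adjusted p = 0.191) with no overlap. The vessels also did not overlap for Ghr, Igf2 and Igf1r, which makes 4 of the 9 genes, against 37.3% of all genes. Igfbp2 was at 7.41 and 7.08 in DA and at 8.06 and 7.29 in aorta, so that its 2 aorta arrays lay 0.77 apart and 1 of them fell within the DA range (difference -0.42 ± 0.23, adjusted p = 0.471). Igfbp6 was at 8.14 and 8.49 in DA and at 8.49 and 8.39 in aorta (difference -0.13 ± 0.17, adjusted p = 0.832), and its groups overlapped.

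Of the genes that did not pass in either strain, Igfbp3 had a difference of -0.43 ± 0.21 in BN, Igf2 of -0.19 ± 0.13, Igf1r of -0.16 ± 0.12 and Igfbp5 of 0.13 ± 0.24. Igf1 (Entrez 24482) could hardly be measured as a group in BN DA, since its arrays were at 10.06 and 11.58. Only 0.186% of all genes had a larger gap between those 2 arrays. Its difference from BN aorta, at 10.92 and 11.39, was -0.33 ± 0.40, and it was -1.09 (limma adjusted p = 0.0362) without BN DA replicate 2 and 0.42 without replicate 1. The lower of these values is that of replicate 1, the array with high lymphocyte and thymocyte markers. Replicate 2 had the highest mean of 9 cardiac muscle markers, 7.16 against 6.56 to 6.79 on the other 7 arrays, and the highest value of the cartilage gene Acan, 10.48 against 9.12 on replicate 1. Whether these markers have a part in the Igf1 values was not tested. Between the BN vessels 0.986% of all genes were called higher in DA and 0.82% lower. Of 7 fibroblast markers 3 were called lower in BN DA and 0 higher, 1 of 6 epithelium and mesothelium markers (Krt8) was called lower, and 1 of 5 cartilage markers (Acan) higher. Of the endothelial, macrophage and smooth muscle markers 0 were called in either direction.

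Whether the difference between the vessels depended on strain was tested as an interaction, the difference in BN minus that in F344. Limma called 0 of the 9 genes and 0 of all 14506 (0%), of which 1403 had an unadjusted p under 0.05, and with the replicate number as a block it called 2 of all genes and 0 of the 9. Igfbp6 had an interaction of 0.93 ± 0.23 (SE, unadjusted p = 0.00307, limma adjusted p = 0.284) and Igfbp2 one of 0.94 ± 0.32 (unadjusted p = 0.0155, adjusted p = 0.425). The loss of their calls in BN was thus not itself a called difference between strains. For Ghr the interaction was -0.13 ± 0.20, with a 95% confidence interval from -0.59 to 0.32, which does not show that the vessels differed alike in the strains but bounds how far apart they were.

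Averaged over the strains, 4 of the 9 genes were called between the vessels, Ghr higher and Igf2r, Igfbp2 and Igfbp6 lower, where 10.1% of all genes were called higher and 6.47% lower (16.6% together). Of all calls 60.9% were higher in DA, and 82.4% after centring on brighter genes. The averaged log2 difference was 0.84 ± 0.10 for Ghr (SE, limma adjusted p = 0.000963), -0.90 ± 0.16 for Igfbp2 (adjusted p = 0.00535), -0.59 ± 0.12 for Igfbp6 (adjusted p = 0.00875) and -0.48 ± 0.09 for Igf2r (adjusted p = 0.0085). All 4 stayed called in each of the 8 fits with an array left out and in each of the 10 other settings tried. Of the 10 settings, the mean of probe sets could not change the values of these 4 genes, each measured by 1 probe set. Igf1r came to -0.23 ± 0.08 (adjusted p = 0.0897) and did not pass.

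**Figure D3:**
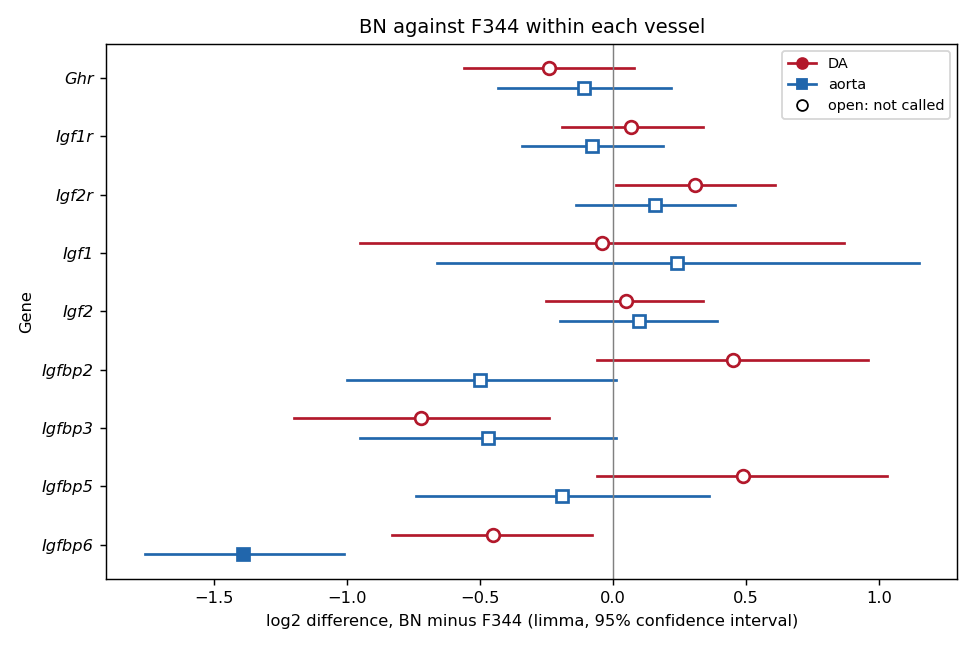
Log2 difference of BN minus F344 (horizontal axis) for each of the 9 genes in DA (red circles) and aorta (blue squares), with 95% confidence intervals from limma; filled symbols passed the test. Igfbp6 in aorta, at -1.39, is the only filled symbol.

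Between the strains, the binding protein gene Igfbp6 was the gene that differed. It was 2.61-fold lower in BN aorta than in F344 aorta, and 1 of the 9 genes fell and 0 rose in a comparison where 0.0758% of all genes were called lower and 0.0827% higher (0.159% together, or 23 genes). The values were 8.49 and 8.39 for BN and 10.02 and 9.64 for F344. The nearest arrays of the groups were 1.15 apart. The log2 difference was -1.39 ± 0.17 (SE, limma adjusted p = 0.0176), and 10 of the 14506 genes had a larger difference in either direction. In the 11 other settings tried the difference stayed between -1.39 and -1.37. Among them, the mean of probe sets could not change the values of Igfbp6, which has 1 probe set. The call held in all of these settings (limma adjusted p between 0.00572 and 0.0341). When an array was left out it held without either BN DA array and was lost without any of the other 6 (adjusted p between 0.0701 and 0.219), with differences between -1.57 and -1.20. The aortas of the strains did not overlap for 5 of the 9 genes and for 35.7% of all genes.

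Igfbp6 is known as a gene of fibroblasts and mesothelial cells among others. The fibroblast markers had means of 10.88 to 10.94 on the BN aorta arrays and of 10.76 to 10.86 on those of F344, and the markers of epithelium and mesothelium had means of 6.85 to 6.88 and of 6.76 to 7.05. No marker of either list was called between the aortas of the strains, where 0.159% of all genes were called. Of the 6 markers of epithelium and mesothelium 3 had a difference below 0 and 3 above. Among those below 0, Msln was at 6.64 and 6.81 in BN aorta and at 7.55 and 6.84 in F344. Of the 7 fibroblast markers 1 had a difference below 0: Pi16 was at 9.92 and 9.18 in BN aorta and at 10.04 and 9.85 in F344. The part of these cells in the Igfbp6 difference was not tested.

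In DA, 0 of the 9 genes were called between the strains by limma, where 4.53% of all genes were (2.43% higher and 2.1% lower in BN). Of all calls 53.7% were higher, and 23.7% after centring on brighter genes, which moved the median of all genes to -0.15. An unadjusted limma p under 0.05 was found for 3 of the 9 (Igf2r, Igfbp3 and Igfbp6) and for 3301 of all 14506 genes. The strains did not overlap in DA for 6 of the 9 genes and for 50.1% of all genes. Igfbp6 was at 8.14 and 8.49 in BN DA and at 8.76 and 8.78 in F344 DA, a difference of -0.45 ± 0.17 (limma adjusted p = 0.146). Igfbp3 was at 9.33 and 9.91 in BN DA and at 10.39 and 10.29 in F344 DA, a difference of -0.72 ± 0.21 (adjusted p = 0.0835), and it passed only without BN DA replicate 2 (-1.02, adjusted p = 0.0172). In aorta the Igfbp3 difference was -0.47 ± 0.21, with 10.28 and 9.82 in BN and 10.62 and 10.42 in F344. Ghr differed by -0.24 ± 0.14 between the ductus of the strains (adjusted p = 0.364) and by -0.11 ± 0.14 between their aortas. In BN DA 4 of 6 lymphatic markers, 1 of 10 endothelial, 1 of 9 macrophage and 1 of 10 lymphocyte markers were called higher than in F344 DA. So were 1 of 5 cartilage markers and 1 of 6 markers of epithelium and mesothelium, and 0 of these lists' genes were called lower. Their part in the values of this set was not tested.

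Averaged over the vessels, Igfbp6 was 1.89-fold lower in BN, with a log2 difference of -0.92 ± 0.12 (SE, limma adjusted p = 0.00762), and 2.65% of all genes were called (1.63% higher and 1.02% lower; 61.5% of calls were higher, and 37.4% after centring on brighter genes). The Igfbp6 call held without each array but F344 DA replicate 2, without which the adjusted p was 0.0512. Igfbp3 had -0.60 ± 0.15 (adjusted p = 0.072), and each of its BN arrays lay below every F344 array of the same vessel. It passed with array weights (adjusted p = 0.0491) and without BN DA replicate 2 (0.0118). Igf2r had 0.23 ± 0.09 (adjusted p = 0.217).

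The order of the 4 groups therefore differed from gene to gene. From high to low, Ghr ran from 10.32 ± 0.13 (SD, n = 2) for F344 DA over 10.08 ± 0.14 for BN DA and 9.42 ± 0.20 for F344 aorta to 9.31 ± 0.01 for BN aorta, and the strains overlapped in aorta. For Igfbp6 it was F344 aorta (9.83 ± 0.27), F344 DA (8.77 ± 0.02), BN aorta (8.44 ± 0.07) and BN DA (8.32 ± 0.25), and the BN vessels overlapped. For Igfbp2 it was F344 aorta, BN aorta, BN DA and F344 DA, with overlap between the BN vessels. For Igf2r it was BN aorta, F344 aorta, BN DA and F344 DA, and no neighbours overlapped. Igfbp3 ran from F344 aorta through F344 DA and BN aorta to BN DA, again with overlap between the BN vessels. For Igf1, Igf2 and Igfbp5 every neighbouring pair of groups overlapped, and the means of Igf2 spanned 0.24 in all, from 11.64 to 11.88. The means of Igf1r spanned 0.30.

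**Figure D4:**
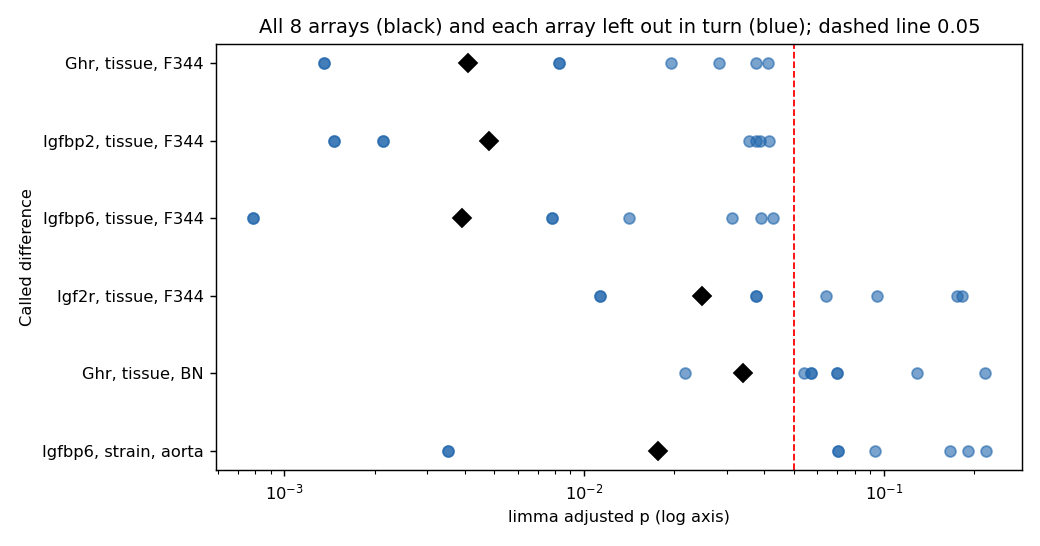
Limma adjusted p (horizontal log axis) of the 6 differences called within a strain or a vessel, with all 8 arrays (black diamonds) and with each array left out in turn (blue circles); the dashed line is 0.05. Ghr, Igfbp2 and Igfbp6 between the F344 vessels stay left of the line in all 8 fits, with a highest value of 0.0427, while the other 3 cross it.

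Other genes of the pathway were taken from 4 lists. Of 10 measured genes that bind IGFs or govern their release, 0 rose and 2 fell in F344 DA, 1 rose in BN DA, and 1 rose and 2 fell on average over the strains. All genes were called higher at 8.87% and lower at 5.12% in F344, higher at 0.986% in BN, and higher at 10.1% and lower at 6.47% on average. The same shares stand behind the counts of the other lists between the vessels. In F344 each of the 3 other scalings gave 1 higher and 1 lower in place of 0 and 2. The median difference of the 10 in F344 was 0.01, against -0.04 over all genes. Pappa, which encodes the protease PAPP-A that cleaves IGFBP4, was at 7.62 and 8 on the DA arrays of BN and at 7.06 and 7.01 on its aorta arrays (difference 0.77 ± 0.15 SE, limma adjusted p = 0.0378), and it rose by 0.60 ± 0.10 on average (adjusted p = 0.00489). Stc1, whose product stanniocalcin can inhibit PAPP-A, went the other way: it was at 7.89 and 7.96 on the DA arrays of F344 and at 9.43 and 9.46 on its aorta arrays, 2.87-fold lower (difference -1.52 ± 0.17 SE, adjusted p = 0.00109), and -1.06 ± 0.12 on average (adjusted p = 0.000667). Htra1, the gene of a protease known to cleave IGFBP5, had -0.68 ± 0.20 in F344 (adjusted p = 0.0489). The averaged calls of Pappa and Stc1 held in all 8 fits with an array left out, the BN call of Pappa in 1 of 8, and the F344 call of Htra1 in 2 of 8. Of the binding protein genes outside the set, named to complete the family after their values were seen, Igfbp1, Igfbp4 and Igfbp7 had differences of 0.25, -0.22 and -0.40 in F344 and were not called. The group means of Igfbp1, Igfbpl1 and Igfals ran from 6.22 to 6.72, below the lowest array median (6.96).

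Of 13 genes of growth hormone and its signalling, 0 were called between the vessels in F344, in BN or on average, and their median differences were 0.07, -0.01 and -0.01. Gh1, Ghrh, Ghrhr, Ghsr and Prlr lay below the lowest array median (6.96) in every group. Their means ran from 4.80 (Prlr in BN DA) to 6.57 (Ghrh in F344 DA), where a difference between the vessels may not show. Under other scalings some of the 13 were called. After repeated quantile normalization, cyclic loess and centring, 1, 1 and 2 were higher in F344 DA and 1, 1 and 1 on average. Between the ductus of the strains 0 of the 13 were called as deposited, where 2.1% of all genes were lower in BN. Under each of the other scalings 2 were lower in BN DA than in F344 DA. Between the strains 1 was called lower on average and 0 higher, where 1.02% of all genes were called lower and 1.63% higher. That gene was Cish, a feedback inhibitor that STAT5 induces. Its values were 7.72 and 7.40 on the BN DA arrays against 8.49 and 8.11 on the F344 DA arrays. In BN aorta they were 7.45 and 7.14, against 7.95 and 7.68 in F344 aorta. Each BN array lay below both F344 arrays of the same vessel, and the gene was 1.55-fold lower in BN (difference -0.63 ± 0.13 SE, limma adjusted p = 0.0438, called in 2 of the 8 fits with an array left out). Socs2, another STAT5-induced inhibitor, named here after its values were seen, had -0.62 ± 0.17 (adjusted p = 0.0889).

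Of 26 measured genes of insulin and IGF receptor signalling, 0 rose and 2 fell in F344 DA, 0 were called in BN, and 0 rose and 2 fell on average. As deposited their median was -0.24 in F344, against -0.04 over all genes, and -0.11 in BN, against 0. After centring on brighter genes it was -0.03 in F344, against 0.16, and -0.06 in BN, against 0.05. In F344 the median was -0.05 against -0.02 after repeated quantile normalization and -0.04 against 0 after cyclic loess, and 0 of the 26 were called under these 3 scalings. The group means of Ins1, Ins2 and Insrr ran from 5.58 to 6.82, below the lowest array median (6.96). Grb14, which encodes an adaptor that inhibits the insulin receptor, had -0.66 ± 0.14 in F344 (SE, limma adjusted p = 0.0145) and -0.59 ± 0.10 on average (adjusted p = 0.00413), with 7.98 and 7.88 for DA and 8.63 and 8.55 for aorta in F344. Pik3cb, a catalytic subunit gene of PI3 kinase, had -0.50 ± 0.13 in F344 (adjusted p = 0.0335), and Foxo3, the gene of a transcription factor that insulin signalling holds back, had -0.31 ± 0.09 on average (adjusted p = 0.0498). The averaged Grb14 call held in all 8 fits with an array left out, and that of Foxo3 in 1. The F344 calls of Grb14 and Pik3cb held in 4 of 8 each, with a highest adjusted p of 0.114 and 0.186.

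Of 10 measured genes for IGF2 mRNA-binding proteins and for imprinted regulators of fetal growth, 0 rose and 2 fell in F344 DA, and 0 were called in BN. Mest, an imprinted gene of mesoderm, was at 9.81 and 9.83 on the DA arrays of F344 and at 10.92 and 10.75 on its aorta arrays, 2.02-fold lower (difference -1.01 ± 0.19 SE, limma adjusted p = 0.00796), and -0.92 ± 0.13 on average (adjusted p = 0.00206). With an array left out, the F344 call held in 5 of 8 fits and the averaged call in all 8. Dlk1, which encodes a Notch-related surface protein, was at 9.38 and 9.13 on the F344 DA arrays against 11.18 and 10.18 on the F344 aorta arrays, 2.68-fold lower (difference -1.42 ± 0.38 SE, adjusted p = 0.0356). That difference lay between -1.92 and -0.92 with an array left out and was called in 5 of those 8 fits and in 7 of 11 other settings. In BN, its values were 10.53 and 11.45 for DA and 10.77 and 11.47 for aorta. It was 3.33-fold higher in BN DA than in F344 DA (difference 1.73 ± 0.38 SE, adjusted p = 0.0357), a call that held in 5 of the 8 fits with an array left out and under none of the 3 other scalings. In that comparison 1 of the 10 genes was called higher and 0 lower, where 2.43% of all genes were called higher and 2.1% lower. All 10 were above 0 as deposited, with a median of 0.25 against 0 over all genes. After each other scaling 8 of 10 were. The median was then 0.15 against 0 with repeated quantile normalization, 0.15 against -0.01 with cyclic loess and 0.11 against -0.15 with centring. H19, the noncoding RNA gene whose imprint is tied to that of Igf2, was 1.32-fold higher in DA on average (difference 0.40 ± 0.09 SE, adjusted p = 0.0164), held in 4 of the 8 fits, while Igf2 had -0.17 ± 0.09 (adjusted p = 0.257).

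**Figure D5:**
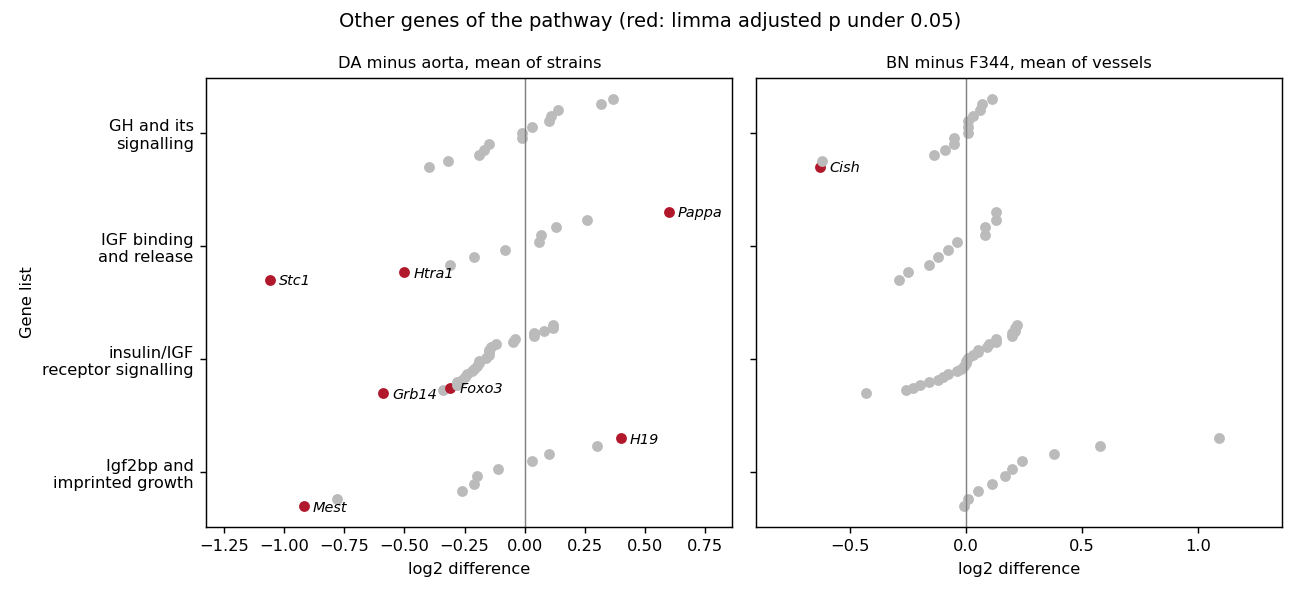
Log2 differences (horizontal axes) of the measured genes of 4 pathway lists, DA minus aorta averaged over the strains on the left and BN minus F344 averaged over the vessels on the right; each point is a gene, ordered by value within its list, and red points with names passed the test. Stc1 (-1.06) and Mest (-0.92) lie farthest left between the vessels and Pappa (0.60) farthest right, and Cish (-0.63) is the red point between the strains.

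The genes most like each called gene over the 8 arrays were sought among 7678 brighter genes. For Ghr they were Lypd6 (Pearson r = 0.991), Adamts9 (0.982) and Sema3d (0.98). The mean of Lypd6 was 8.77 for F344 DA, 8.28 for BN DA, 6.63 for the F344 aorta and 6.51 for the BN aorta, the order of Ghr, while Adamts9 was at 8.59 and 8.61 in these aortas. For Igf2r they were Aldh18a1 (0.994), Klhdc10 (0.992) and Nid2 (0.992), for Igfbp2 Hm13 (0.98), Mccc2 (0.979) and Specc1 (0.976), and for Igfbp6 Klf6 (0.979), Cep95 (0.967) and Ogn (0.962). The arrays form 4 groups of 2, so these values mostly follow the group means, and they are the highest of many.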

How the data were processed

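Expression was measured on 8 Affymetrix Rat Gene 1.0 ST arrays, each from 150 ng of RNA of pooled tissues, in 4 groups of 2. The authors deposited log2 values, taken as such from their range (1.07 to 14.2). Per the submitters' processing notes they were made with RMA, which corrects background, normalizes arrays and summarises probes; its version, its settings and the genome build were not given in the sources used here. Array medians lay between 6.96 and 7.05. The number of arrays limits the precision.

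Of 29215 probe sets, 15310 had 1 gene symbol in the platform annotation of 2016, 323 had several and 13582 were unnamed. The probe set with the highest mean was kept for each of 14506 genes. Of the named probe sets, 15279 matched an Entrez identifier in RefSeq (GRCr8), with no symbol changed, and promoters of all 9 genes came from RefSeq.

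One limma model (version 3.58.1, R 4.3.3) with a mean for each group was fitted to all arrays (4 residual and 5.25 prior degrees of freedom), with 7 two-sided contrasts, with p-values adjusted by Benjamini and Hochberg over all genes and calls under 0.05. An exact permutation test of 2 arrays against 2 cannot pass 0.05 and was not used. The fit was tested on simulated data, where it recovered 74% of 100 genes changed by 1 and 97% of 100 changed by 2 on the log2 scale between the F344 vessels, among 14506 genes, with 5.5% false calls. The simulated noise was independent between arrays, with the same spread in all groups. In the real data the SD of replicate differences ran from 0.196 in F344 aorta to 0.349 in BN DA, and these differences were correlated between groups. The simulated shares may therefore not hold for the real calls.

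The members and lists were chosen with earlier results of these data known. The rule names all 9 genes, the called genes of each pathway list (up to 5), and for each called member the 3 genes with the highest correlation among genes with a group mean at or above the median of all values (7.48), leaving out predicted and chemosensory receptor genes. Listed genes that were not measured by a probe set of their own symbol are not analysed here. Alternatives were the omission of dim genes or of 1283 chemosensory receptor genes, robust moderation, a mean-variance trend, repeated quantile normalization, cyclic loess, centring on brighter genes, the mean of probe sets, array weights, the replicate block, fits of the 4 arrays compared and each array left out. For the pathway genes these alternatives were added after seeing the data. The mean of probe sets could not change the values of the 9 genes, each measured by 1 probe set.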

Additional observations from a re-analysis of the deposited data

How the results depend on the processing

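Over 9 genes, 7 contrasts and up to 19 alternatives, 1140 of 1170 differences kept their side of the threshold and called ones their direction, 23 were no longer called, 7 became called and 0 called differences reversed. Most of the 1170 were of differences not called in the main fit, so the 1140 say little about how stable the calls were. For the vessels in F344 the called members stayed within 1.5 times of 4. For the vessels in BN 1 member was called, and 0 with array weights and 0 with only the 4 BN arrays fitted. For the strains averaged over the vessels 1 was called, and 2 with array weights. With each array left out, the called members ranged from 3 to 4 between the F344 vessels, from 0 to 2 between the BN vessels, from 0 to 1 between the strains in DA, from 0 to 1 in aorta, from 4 to 6 between the vessels on average and from 0 to 2 between the strains on average. Leaving out an array also leaves 3 residual degrees of freedom. The counts over all genes moved more than 1.5 times: 2028 between the F344 vessels became 788 without dim genes, 982 without chemosensory receptor genes, 3363 with the 4 arrays alone and 3710 with array weights, and 646 to 2850 with an array left out; 262 in BN became 100 with array weights and 16 with the 4 arrays, and 16 to 600 with an array left out; 657 between the strains in DA became 326, 118 and, without receptor genes, 408, and 13 to 1233 with an array left out; 23 in aorta became 54 and 56, and 0 to 69; 0 for the interaction became 0 to 56; 2403 on average between vessels became 1081 without dim genes and 1332 without receptor genes, and 1361 to 3184 with an array left out; 384 between strains became 211 after centring, and 55 to 1015.

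The main fit did not pair the arrays by replicate number. Replicate differences correlated between groups by 0.028 to 0.521, with 1 of 6 correlations under 0.1 and none below 0. The mean of 7 erythroid markers was higher on replicate 1 in each group, and that of 4 liver markers was lower on it. For the erythroid markers it was 8.64 against 7.71 in F344 DA and 8.11 against 7.44 in F344 aorta. In BN it was 9.08 against 7.85 in DA and 8.54 against 7.83 in aorta. Whether arrays of the same number share a preparation was not tested. With the number as a replicate block, the called members were 4, 1, 0 and 1 in F344, BN, DA and aorta, 0 for the interaction, and 4 and 1 on average, as without it. The counts of all genes rose to 548 in BN, 1583 between the strains in DA, 2 for the interaction and 966 between the strains on average.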

Other observations

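Genes that neighbour members in RefSeq were also measured. Igfbp2 and Igfbp5 lie next to each other, and Igfbp2 fell in F344 DA while Igfbp5 had -0.54 ± 0.24 there and 0.13 ± 0.24 in BN. Igfbp1 lies beside Igfbp3 and had 0.25 ± 0.14 in F344 and 0.02 ± 0.14 in BN, and Ins2 lies beside Igf2 and had 0.08 ± 0.13 and -0.01 ± 0.13. Beside Igfbp6, Spryd3 had -0.19 ± 0.16 and Soat2 -0.21 ± 0.15 between the aortas of the strains, and neither was called. Of the neighbours of Ghr, Ccdc152 had -0.26 ± 0.18 and Fbxo4 -0.22 ± 0.17 between the F344 vessels, where Ghr rose. In F344 DA and aorta Ccdc152 had means of 4.26 and 4.52 and Fbxo4 of 6.73 and 6.95. These lay below the lowest array median (6.96), as did the group means of Igfbp1, Ins2 and Soat2.

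Replicates of 1 group were widest apart for Igf1 in BN DA (1.52), Igfbp2 in BN aorta (0.77), Igfbp3 in BN DA (0.59), Igfbp5 in BN DA (0.56) and Igfbp5 in F344 aorta (0.52). On BN DA, 7 of the 9 genes were lower on replicate 1 than on replicate 2, and Ghr (by 0.20) and Igfbp2 (by 0.33) were higher on it.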
